A study of Mus musculus with 35 samples.

Results

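Irradiated mouse skin collected 4 weeks after a dose of 25 Gy was compared with sham skin across all genes. Of the 35 samples of the study, 7 enter this comparison: 4 radiated samples of week 4 and 3 sham samples, chosen by their sample names in the deposited table. All mice were females of the inbred strain C57BL/6J and were 10 weeks old at the start. The radiated mice received their dose on the skin of the left flank at 3.6 Gy per minute over 420 seconds, the treated skin was then shaved with an electric razor, and biopsies came from the radiated site. The sham mice received no radiation. The day on which sham skin was taken, its site and whether it was shaved are not given in the sources used here, so the effects of radiation, of shaving and regrowth of hair, and of the time since the start cannot be told apart in this comparison. Of the other samples, 4 of radiated skin of week 3 and 4 of control skin of week 4 (labelled control, with no body site given, and likely from the radiated mice, since 35 samples came from 19 mice) are used only for the values set beside this comparison near the end.

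Skin is built from a stratified epidermis, whose basal keratinocytes divide and whose upper layers form the cornified barrier, hair follicles with sebaceous glands, a dermis of fibroblasts and collagen, fat, and in rodents a thin sheet of striated muscle, the panniculus carnosus. Ionizing radiation breaks DNA, activates the p53 pathway and depletes dividing basal and follicle cells; the skin reaction that follows over weeks, radiation dermatitis, is known for epidermal loss and regrowth, inflammation and, later, fibrosis. Keratinocytes of injured epidermis are known to switch on the stress keratins of the Krt6 and Krt16 type and antimicrobial proteins, and dermal repair is known for deposition of collagen and matricellular proteins.

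RNA was measured as estimated counts per gene, with totals between 17362725 and 24144928 counts over the 7 samples. Values below are counts per 1000000 (CPM, scaled between libraries, not corrected for gene length), listed in the order of replicates 1 to 3 of sham and 1 to 4 of radiated skin. Among the 9 pairs of libraries within the 2 groups, none agreed within sampling noise. The first principal component of log2 CPM held 60.02% of the variance, with sham samples between -105 and -63.2 and radiated samples between 33.9 and 92.1. On the second component (13.8%), sham replicate 1 at -66.9 and radiated replicate 3 at 60.5 stood apart from their groups. These same libraries differed from their groups in hair genes: radiated replicate 3 was the highest and sham replicate 1 the lowest of its group. The share of counts from mitochondrial genes was 1.66 to 2.75% in sham and 1.10 to 1.22% in radiated skin. The basal keratin gene Krt5 was at 2595 CPM or more in all 7 samples, as the label of skin implies. In these libraries from female mice, Y-linked transcripts of 4 genes summed to 20.3 to 30.4 CPM in sham and 26.8 to 51.5 CPM in radiated skin. Of the 4 genes, 1 was higher in radiated skin by the test described below. The origin of these transcripts was not tested.

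Of 36106 genes in the table, 18346 passed a filter on low counts and were tested, and 4899 of them (26.7%) differed between radiated week 4 and sham skin at an adjusted p under 0.05 (edgeR quasi-likelihood test, Benjamini-Hochberg). The expression of 2781 genes (15.2%) was higher and that of 2118 (11.5%) was lower in radiated skin. This balance turned in 1 fit of all 35 samples, with 2407 genes higher and 2720 lower. Changes over 2-fold were found for 1893 of the higher and 1088 of the lower genes, and changes over 16-fold for 175 and 36. In 6929 tested genes (37.8%) the CPM of the 4 radiated samples did not overlap those of the 3 sham samples, and 4730 of the 4899 genes were among these. The median log2 fold change of all tested genes was -0.03. These shares and this median are the background against which each gene group below is to be read. In each list, members near 0 in sham skin could pass the count filter through the radiated samples alone. Counts of risers carry that choice. Nothing in the labels says which samples were processed together, and the p-values measure the spread between these 7 samples. Adjusted p-values below come from this test unless another is named. In bulk skin, fewer cells of a type and less RNA per cell cannot be told apart. Leaving out 1 library at a time left between 3467 and 4590 genes.

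**Figure D1:**
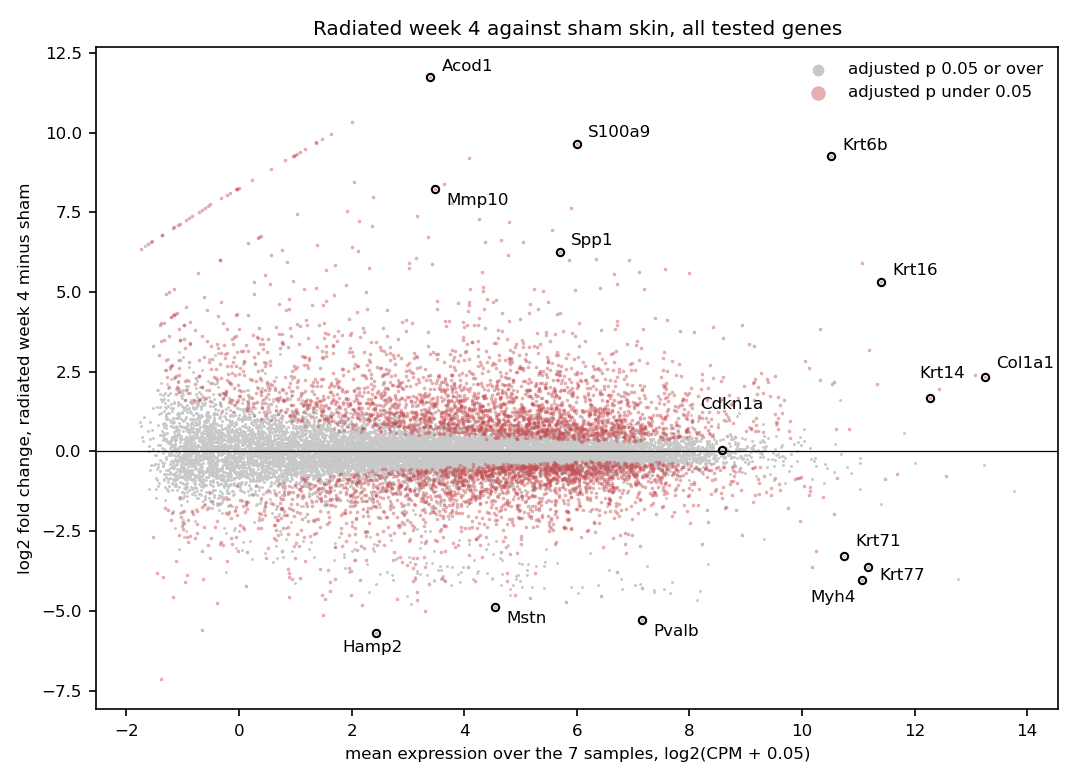
Log2 fold change of radiated week 4 minus sham skin (vertical axis) against mean expression over the 7 samples (horizontal axis, log2 of CPM plus 0.05) for the 18346 tested genes, with the 4899 genes past an adjusted p of 0.05 in red and 15 genes circled by name. Red points above 0 reach far higher than those below 0 reach down; the straight line of points at the upper left holds genes with a count of 0 in all sham samples, whose fitted fold is no measured size.

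The largest increases among genes averaging at least 5 CPM were in genes of neutrophils and activated macrophages and of injured epidermis. Acod1 (ENSMUSG00000022126, chromosome 14, 103046977 to 103056573; coordinates here and below are GRCm38, GENCODE M21), which makes itaconate in activated macrophages, had no count in sham skin and 26.4, 9.502, 14.8 and 22.7 CPM in radiated skin, at least 405-fold higher against a floor of 3 counts over the sham libraries. S100a9 (ENSMUSG00000056071, chromosome 3, 90692632 to 90695721), a subunit of the neutrophil alarmin calprotectin, was at 0.132, 0.1300 and 0.155 CPM in sham and 154, 118, 39.1 and 137 CPM in radiated skin, a log2 fold change of 9.65 (adjusted p 0.000128, SE 0.667). Radiated replicate 3 was the lowest of the radiated samples. Cxcl2 (ENSMUSG00000058427, chromosome 5, 90903871 to 90905938), a chemokine that attracts neutrophils, went from 0.0883, 0 and 0.0516 CPM in sham to 32.9, 22.8, 17.97 and 44.8 CPM in radiated skin; with 3 counts in all of sham skin the ratio of counts was 654 (95% counting interval 224 to 3175). Stfa1 (ENSMUSG00000071562, chromosome 16, 36276951 to 36285373), a stefin of the cysteine protease inhibitors found in neutrophils, was at 0.132, 0.173 and 0 CPM in sham and 23.04, 39.2, 11.1 and 22.2 CPM in radiated skin, a log2 fold change of 7.78 (adjusted p 0.000262, SE 0.694). Here 43.8% of the distinct 31-base words of its transcripts occur in other genes as well, so its count depends on how reads were shared out between similar genes.

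Krt6b (ENSMUSG00000023041, chromosome 15, 101676023 to 101680287), a keratin of injured and hyperproliferative epidermis, was at 3.13, 8.41 and 1.24 CPM in sham and 2803, 3116, 1921 and 2349.7 CPM in radiated skin, a log2 fold change of 9.25 (adjusted p 0.000172, SE 0.749). It shares 57% of its 31-base words with other genes, so its count cannot be fully separated from theirs. Sprr2d (ENSMUSG00000042212, chromosome 3, 92339140 to 92340873), a small proline-rich protein of the cornified envelope, was at 0.0883, 0 and 0.103 CPM in sham and 34.1, 27.3, 7.04 and 18.4 CPM in radiated skin (log2 fold change 8.38, adjusted p 0.00039, SE 0.833). Mmp10 (ENSMUSG00000047562, chromosome 9, 7502352 to 7510240), the matrix protease stromelysin-2 that migrating keratinocytes make at wound edges, was at 0, 0.173 and 0 CPM in sham and 15.6, 13.8, 18.2 and 30.2 CPM in radiated skin (log2 fold change 8.23, adjusted p 0.000234, SE 0.716). Pla2g4d (ENSMUSG00000070719, chromosome 2, 120265595 to 120289197), a phospholipase of keratinocytes, was at 0.0441, 0 and 0.0516 CPM in sham and 12.1, 11.4, 3.48 and 8.79 CPM in radiated skin, a ratio of 302 (95% counting interval 83.2 to 2494) on 2 counts in sham skin. The 8 genes, like the 8 largest decreases named below, were chosen among called genes whose groups did not overlap, so that separation is part of the choice. Radiated replicate 3 was the lowest radiated sample for S100a9, Cxcl2, Stfa1, Krt6b, Sprr2d and Pla2g4d.

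Promoter sequences are shown for 3 of these genes because their windows hold sequence words of known promoter elements. RefSeq windows (GRCm38.p6) running from 250 bases before to 50 bases after the start were found for 7 of the 8 genes, all but Krt6b. The 7-letter word TGANTCA, the core of an AP-1 element, reads the same on both strands. It occurred in 2 of the 7 windows (Mmp10 and Sprr2d) and in 8.97% of 27025 genes with at least 1 window (7.81% of 32851 windows). TATAAA, read on the strand of the gene, occurred in 4 of the 7 windows and in 9.77% of all genes with a window (8.32% of windows); Acod1, Mmp10 and Sprr2d hold it before their starts, its first base lying 28, 29 and 29 bases upstream. Of the 11 stress keratin and alarmin genes that rose, 6 had a window and 0 of these held TGANTCA. The 8 genes were chosen for the size of their increase and searched after their values had been seen, and a match describes letters in the window only. The 250 bases before each start, with both words in capitals, are:
Mmp10 (chr9:7502092-7502341, plus strand): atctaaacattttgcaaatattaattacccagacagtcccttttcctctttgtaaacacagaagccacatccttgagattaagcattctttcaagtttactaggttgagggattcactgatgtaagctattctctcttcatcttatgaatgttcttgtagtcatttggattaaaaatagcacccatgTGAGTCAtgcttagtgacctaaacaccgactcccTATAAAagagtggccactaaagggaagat
Sprr2d (chr3:92338890-92339139, plus strand): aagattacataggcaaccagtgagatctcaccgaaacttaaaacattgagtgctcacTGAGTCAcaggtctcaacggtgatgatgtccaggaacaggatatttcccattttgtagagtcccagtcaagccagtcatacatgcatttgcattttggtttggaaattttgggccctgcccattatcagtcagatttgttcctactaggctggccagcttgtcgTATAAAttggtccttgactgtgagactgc
Acod1 (chr14:103046762-103047011, plus strand): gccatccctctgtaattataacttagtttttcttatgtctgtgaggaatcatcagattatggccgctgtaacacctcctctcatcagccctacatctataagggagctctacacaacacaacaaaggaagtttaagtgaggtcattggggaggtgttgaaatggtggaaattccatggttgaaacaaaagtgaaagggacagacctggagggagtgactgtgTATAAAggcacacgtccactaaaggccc

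The stress keratins and alarmins, a list of 16 genes, rose in 11 of 14 tested members, none fell (1 without sham replicate 1), and their median log2 fold change was 5.08. Members such as Serpinb3a, with 1 count in all of sham skin, passed the count filter through the radiated samples alone. The count of risers carries that choice. Krt16 (ENSMUSG00000053797, chromosome 11, 100246091 to 100248902), the partner of Krt6 in stressed epidermis, was at 20.5, 271 and 63.2 CPM in sham and 4611, 5930.1, 3379 and 4592 CPM in radiated skin, a log2 fold change of 5.32 (adjusted p 0.00316, SE 0.879). Krt6a (ENSMUSG00000058354, chromosome 15, 101689910 to 101694307) was at 127, 883 and 264 CPM in sham and 3127, 3722, 4009.9 and 4209.8 CPM in radiated skin (log2 fold change 3.19, adjusted p 0.00657, SE 0.6195). Sham replicate 2 was the highest sham sample for Krt6a, Krt6b and Krt16, and for Krt6a and Krt16 it still lay below every radiated sample. Krt6a and Krt16 share 62% and 51.9% of their 31-base words with other genes. S100a8, the other subunit of calprotectin, was at 0.441, 0.347 and 0.206 CPM in sham and 60.9, 53.2, 19.9 and 59.9 CPM in radiated skin (log2 fold change 7.19, adjusted p 0.000143, SE 0.534). Among the antimicrobial and protease-inhibiting members, Lcn2 (lipocalin 2, which binds bacterial iron carriers) was at 0.675 ± 0.5204 in sham and 47.1 ± 21.6 CPM in radiated skin (SD, n = 3 and 4; log2 fold change 6.16 (adjusted p 0.000527, SE 0.669)). Slpi, an inhibitor of leukocyte elastase, was at 0.705 ± 0.431 and 34.1 ± 8.63 CPM (log2 fold change 5.63, adjusted p 0.000166, SE 0.448). Krt17, which also marks the outer root sheath of hair follicles, was at 287, 816 and 511 CPM in sham and 387, 625, 735 and 501 CPM in radiated skin, overlapping groups with a log2 fold change of 0.11 (adjusted p 0.852, SE 0.349). The other tested members that did not pass were Il1rn (0.24) and S100a7a (-1.82), and 2 members, Defb3 and Defb4, were not tested. S100a7a passed without sham replicate 1 (adjusted p 0.00683).

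Of 9 keratins of the basal and suprabasal layers, 1 rose and 4 fell, with a median log2 fold change of -1.63. Krt14 (ENSMUSG00000045545, chromosome 11, 100203162 to 100207548), the basal layer keratin, was at 2208, 3099 and 1409 CPM in sham and 6705, 7733, 6429 and 7178 CPM in radiated skin, a log2 fold change of 1.69 (adjusted p 0.00349, SE 0.284). Krt14 shares 28.2% of its 31-base words with other genes, so its count cannot be fully separated from theirs. Its partner Krt5 was at 5189.8, 6707 and 2595 CPM in sham and 3174, 3831, 4151 and 3312 CPM in radiated skin; the groups overlapped and the log2 fold change was -0.38 (adjusted p 0.407, SE 0.308). Krt15 (ENSMUSG00000054146, chromosome 11, 100131758 to 100135928), a keratin of resting basal and follicle bulge cells, fell from 3018, 2811 and 1548 CPM in sham to 127, 444, 179 and 20.3 CPM in radiated skin, a log2 fold change of -3.64 (adjusted p 0.0118, SE 0.809). Krt77 (ENSMUSG00000067594, chromosome 15, 101858731 to 101869705), a suprabasal keratin of mouse skin, fell from 6658, 4506 and 3494 CPM in sham to 208, 829, 453 and 54.6 CPM in radiated skin (log2 fold change -3.62, adjusted p 0.00908, SE 0.758). Krt10, the main keratin of the spinous layers, was at 6028, 4246 and 3072 CPM in sham and 1298, 2267, 1792 and 202 CPM in radiated skin. Its groups did not overlap, but radiated replicate 4 was far below the other radiated samples, and the log2 fold change of -1.64 (SE 0.637) did not pass the test (adjusted p 0.0913 in edgeR). Radiated replicate 4 was the lowest sample for Krt10, Krt15 and Krt77. Krt80 (-1.73) and Krt2 (-1.63) also fell, while Krt1 (0.85) and Krt78 (-0.97) did not pass the test. Krt5 passed without sham replicate 3 (adjusted p 0.0344). Krt10 passed without radiated replicate 4 (adjusted p 0.0318). Krt78 passed without radiated replicate 2 (adjusted p 0.0134).

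Among 35 tested genes of the cornified envelope and barrier 10 rose, 2 fell and the median log2 fold change was 0.25; without radiated replicate 1 the count of falling members was 1. In 1 fit of all 35 samples 6 rose, and DESeq2 called 5 falls. Of the tested members 2 had no count in sham skin and passed the count filter through the radiated samples alone, so the count of risers carries that choice. The risers were small proline-rich proteins, late envelope proteins of the Lce3 group, repetin and the proteases Klk8 and Klk13, many of them known from wounded and inflamed epidermis. Sprr1b was at 0.706, 1.26 and 4.85 CPM in sham and 77.7, 103, 239.9 and 139.9 CPM in radiated skin (log2 fold change 6.03, adjusted p 0.000849, SE 0.736). Lce3f had no count in sham skin and reached 3.03, 4.15, 2.39 and 4.33 CPM, at least 77.8-fold higher against the floor; 49.7% of its 31-base words occur in other genes. Rptn (repetin) rose from 6.49, 25.6 and 15.3 CPM in sham to 365, 440.3, 154 and 163 CPM in radiated skin (log2 fold change 4.19, adjusted p 0.00166, SE 0.596), and Klk13, a secreted protease, rose by a log2 fold change of 5.08. The members that fell were Flg2 and Ivl. Flg2 (ENSMUSG00000049133, chromosome 3, 93197278 to 93221391), filaggrin 2, fell from 3198, 2137 and 2037 CPM in sham to 200.2, 509.7, 362 and 15.8 CPM in radiated skin (log2 fold change -3.13, adjusted p 0.0257, SE 0.844). Ivl, involucrin, fell by 1.51 on the log2 scale (adjusted p 0.00689). Lor, loricrin, was at 40.8, 30.3 and 35.8 CPM in sham and 11.4, 21.4, 21.2 and 2.85 CPM in radiated skin with a log2 fold change of -1.28 (adjusted p 0.114, SE 0.539). Flg, filaggrin, was at 799, 654 and 886 CPM in sham and 2569, 3905, 2344 and 348 CPM in radiated skin with 1.601 (adjusted p 0.096, SE 0.633). Outside the list, Dsp (ENSMUSG00000054889, chromosome 13, 38151294 to 38198577), desmoplakin of the desmosomes, fell from 6780.5, 9638 and 7646 CPM in sham to 3844, 5438, 5109 and 3672 CPM in radiated skin (log2 fold change -0.78, adjusted p 0.0338, SE 0.227). Alox12e (ENSMUSG00000018907, chromosome 11, 70315610 to 70322628), an epidermal lipoxygenase that is also not on the list, fell from 148, 294 and 133 CPM in sham to 8.24, 16.7, 6.62 and 0.357 CPM in radiated skin (log2 fold change -4.54, adjusted p 0.00553, SE 0.849), with radiated replicate 4 the lowest. Flg2 did not pass without radiated replicate 1 or sham replicate 1 (adjusted p up to 0.0715). Lor passed without radiated replicate 4 (adjusted p 0.0441). Flg passed without radiated replicate 4 (adjusted p 0.00269). Dsp did not pass without radiated replicate 1, 2, 3 or 4 or without sham replicate 2 (adjusted p up to 0.112).

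Among 15 genes of epidermal adhesion and migration 4 rose and none fell (median 0.55); 7 rose without radiated replicate 1, and 1 fell without sham replicate 3. The share called was near that of all genes (26.7%). The risers included Itga5, the fibronectin receptor subunit that keratinocytes use on provisional matrix, which went from 13.6, 11.4 and 11.2 CPM in sham to 73.5, 70.5, 90.3 and 119 CPM in radiated skin (log2 fold change 2.92, adjusted p 0.000143, SE 0.2200). Itgb1, an integrin chain (log2 fold change 1.61, adjusted p 0.000961), and Lama3, a laminin chain (log2 fold change 0.88, adjusted p 0.00626), rose as well. Of 12 genes of the EGF receptor family and its ligands 4 rose and 4 fell. The ligands Nrg1 (log2 fold change 3.45, adjusted p 0.00113), Epgn (log2 fold change 3.19, adjusted p 0.00065), Hbegf (log2 fold change 2.61, adjusted p 0.00357) and Areg (log2 fold change 2.23, adjusted p 0.0145) were higher, and the receptors Erbb2 (log2 fold change -1.03, adjusted p 0.00957) and Erbb3 (log2 fold change -1.004, adjusted p 0.0113) and the ligands Btc (log2 fold change -1.63, adjusted p 0.000734) and Egf (log2 fold change -1.02, adjusted p 0.0238) were lower. Hbegf, for example, was at 9.05, 25.4 and 12.1 CPM in sham and 57.4, 79.4, 84.9 and 148 CPM in radiated skin. Egfr itself was at 241, 319.8 and 283 CPM in sham and 222, 218, 272 and 226 CPM in radiated skin, a log2 fold change of -0.22 (adjusted p 0.31, SE 0.144). Egf did not pass without radiated replicate 1, 3 or 4 or without sham replicate 1 or 3 (adjusted p up to 0.0796).

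**Figure D2:**
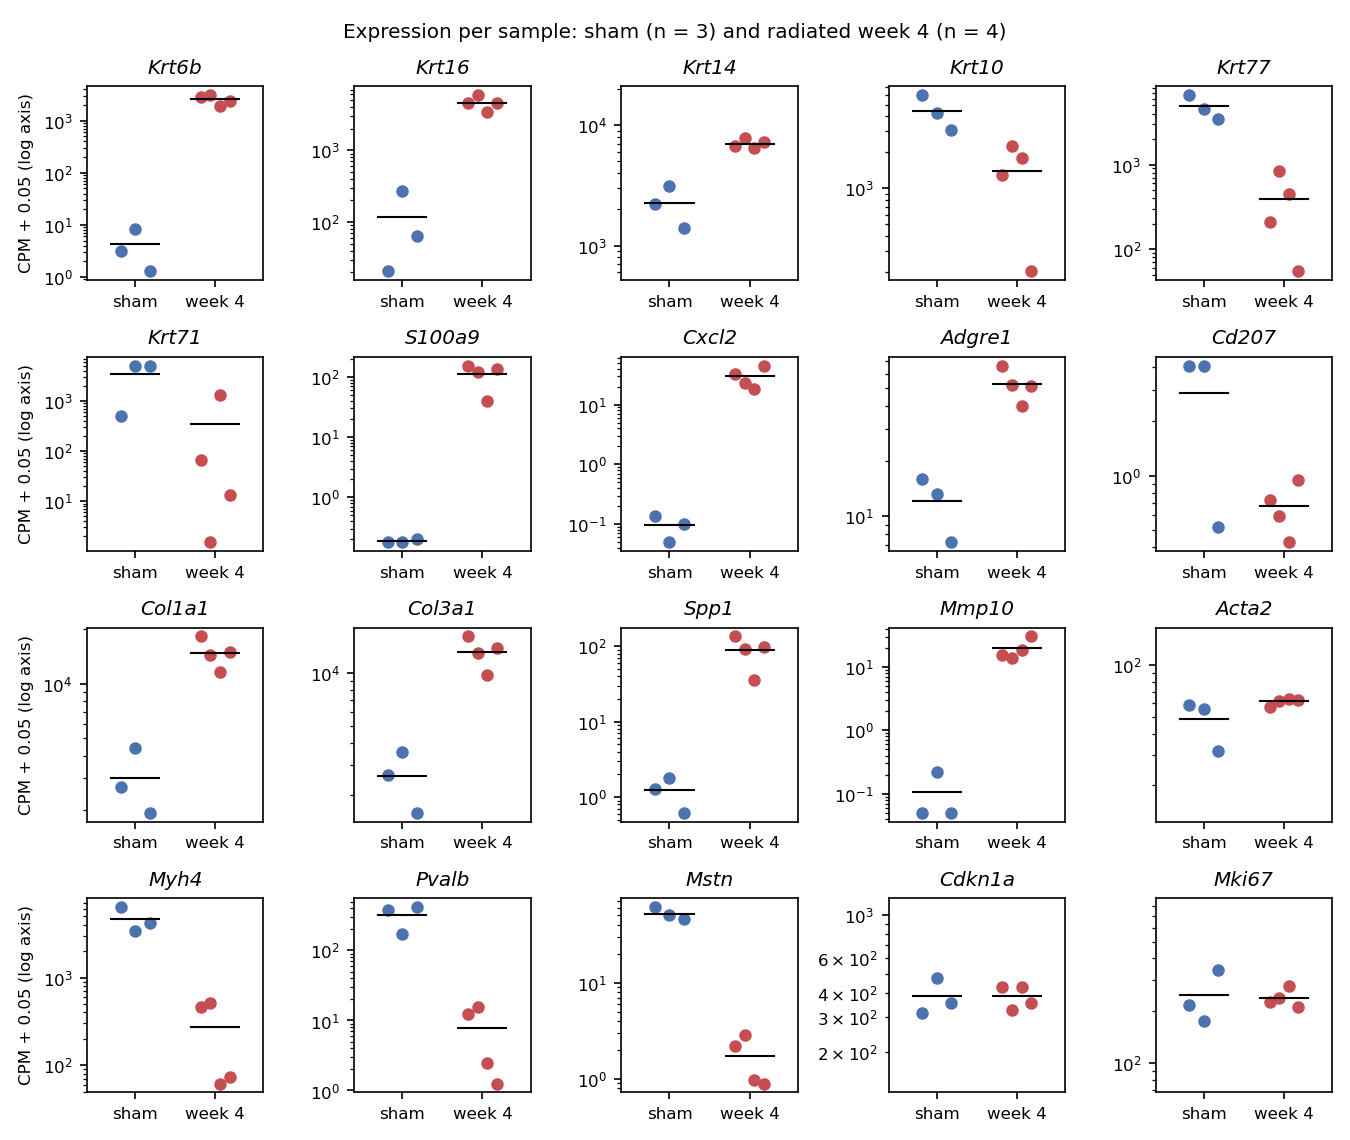
CPM plus 0.05 on a log axis for 20 genes in each sham sample (blue, n = 3) and each radiated sample of week 4 (red, n = 4), with black bars at the group means. Krt6b, Krt16, S100a9, Cxcl2, Spp1 and Mmp10 are separated by wide gaps, Krt77, Myh4, Pvalb and Mstn lie lower in all radiated samples, and Cdkn1a, Mki67, Acta2 and Krt71 overlap.

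Hair genes differed widely between samples of one group. The hair shaft and inner root sheath list had a median log2 fold change of -3.74 over 30 tested genes, yet 6 fell at the threshold and none rose. The mean log2 CPM of the list was 4.68, 8.04 and 8.31 in sham and 2.07, -0.07, 5.82 and 0.45 in radiated skin. Radiated replicate 3 thus lay above sham replicate 1, and the other 3 radiated samples lay below all sham samples. Krt71, a keratin of the inner root sheath, shows the pattern: 499.6, 4966 and 5146 CPM in sham and 67.8, 1.47, 1334 and 12.98 CPM in radiated skin, with a log2 fold change of -3.27 (adjusted p 0.212, SE 1.78). Krt33b (ENSMUSG00000057723, chromosome 11, 100023634 to 100029868) and Krt36 (ENSMUSG00000020916, chromosome 11, 100102007 to 100105626), both hair keratins (Krt36 is not on the list), passed the test. Krt33b fell from 14.2, 99.5 and 124 CPM in sham to 0.512, 0, 11.8 and 0.178 CPM in radiated skin (log2 fold change -4.61, adjusted p 0.047, SE 1.46). Krt36 fell from 3.399, 22.6 and 20.5 CPM in sham to 0.299, 0, 2.05 and 0.0446 CPM in radiated skin (log2 fold change -4.63, adjusted p 0.0174, SE 1.13). Krt33b shares 36.4% of its 31-base words with other genes. The number of falling members depended on single libraries: it was 28 without radiated replicate 3, 11 without sham replicate 1, 2 without radiated replicate 2 or 4, 1 without sham replicate 2, and 0 without radiated replicate 1 or sham replicate 3. With all libraries DESeq2 called 11 falls and 1 fit of all 35 samples 12. In control skin of week 4 the mean log2 CPM was 0.04, -0.06, 0.06 and -0.09, about the level of the lowest radiated sample. Hair growth is cyclic, and its part in the other differences from sham skin was not tested. Krt71 passed without radiated replicate 3 (adjusted p 0.0157). Krt33b did not pass without radiated replicate 1, 2 or 4 or without sham replicate 2 or 3 (adjusted p up to 0.108). Krt36 did not pass without radiated replicate 1 or sham replicate 2 (adjusted p up to 0.0541).

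Follicle stem and progenitor genes, another list of 16 tested genes, fell in 9 and rose in none, with a median of -1.52. Sox9, a transcription factor of the outer root sheath and bulge, was at 219.8, 529 and 181 CPM in sham and 72.2, 88.4, 147 and 57.98 CPM in radiated skin (log2 fold change -1.72, adjusted p 0.0184, SE 0.428). Lgr5, a receptor of cycling follicle stem cells, was at 20.2, 61.2 and 24.6 CPM in sham and 9.09, 8.34, 8.29 and 6.96 CPM in radiated skin (log2 fold change -2.07, adjusted p 0.00415, SE 0.364), and Lgr6 fell by 2.097 (adjusted p 0.00959). Shh, the ligand that drives follicle growth, fell by 2.300 on the log2 scale (adjusted p 0.0215), and its target Ptch1 by 1.05 (adjusted p 0.0064). Cd34, which also marks fibroblasts and vessels, was at 191, 159.9 and 98.03 CPM in sham and 113, 117, 103 and 103 CPM in radiated skin, a log2 fold change of -0.42 (adjusted p 0.176, SE 0.2103). The falling count was 6 without radiated replicate 1, 7 to 9 without any other library and 11 by DESeq2. Of 18 sebaceous gland genes 3 rose and 7 fell (median -0.61); 4 fell without radiated replicate 1, radiated replicate 4 or sham replicate 1, and 1 rose in 1 fit of all 35 samples. Scd3, a desaturase of sebocytes, fell from 355, 177 and 141 CPM in sham to 9.52, 35.4, 10.5 and 7.85 CPM in radiated skin (log2 fold change -3.78, adjusted p 0.00234, SE 0.582). Mc5r, the melanocortin receptor of sebocytes, fell from 15.8, 23.4 and 16.9 CPM in sham to 3.46, 5.08, 8.75 and 2.23 CPM in radiated skin (log2 fold change -1.89, adjusted p 0.0109, SE 0.413). Fabp5, a fatty acid carrier that keratinocytes also make, rose (log2 fold change 1.63, adjusted p 0.000629). Sox9 did not pass without radiated replicate 1 or sham replicate 2 (adjusted p up to 0.0593). Shh did not pass without radiated replicate 1 or 4 or without sham replicate 3 (adjusted p up to 0.0797). Cd34 passed without sham replicate 3 (adjusted p 0.00874).

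**Figure D3:**
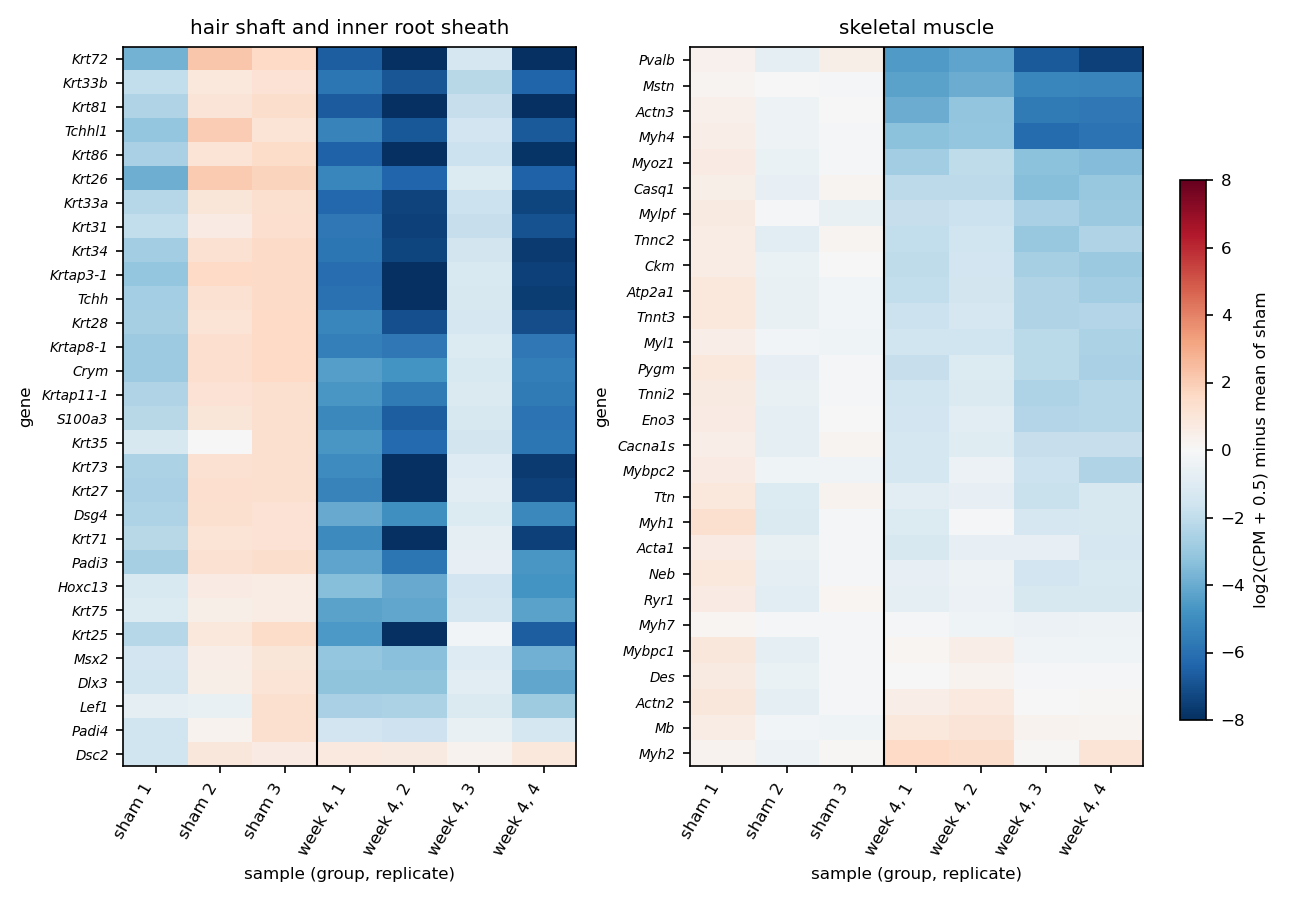
Colour gives log2(CPM + 0.5) minus the mean of the 3 sham samples for each tested gene of the hair shaft and inner root sheath list (left, 30 genes) and of the skeletal muscle list (right, 28 genes), with 1 column per sample. Hair genes were low in radiated replicates 1, 2 and 4. In radiated replicate 3 the mean of the hair list lay between sham replicate 1 and the other sham samples, though not every member did. Krt33b, for example, lay below all sham samples there. Muscle genes of the fast type at the top right were low in all 4 radiated samples.

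Of 16 tested fibrillar and associated collagens 13 rose and none fell, with a median log2 fold change of 2.16, and the count was 13 or 14 whichever library was left out. Col1a1 (ENSMUSG00000001506, chromosome 11, 94936224 to 94953042), the main chain of type I collagen, was at 2700.0, 4399 and 1939 CPM in sham and 18197, 14319, 11596 and 14828 CPM in radiated skin, a log2 fold change of 2.33 (adjusted p 0.00175, SE 0.336). Col3a1 (ENSMUSG00000026043, chromosome 1, 45311538 to 45349706), the collagen of early repair tissue, was at 2624, 3535 and 1592 CPM in sham and 16165, 13070.1, 9688 and 13841 CPM in radiated skin (log2 fold change 2.39, adjusted p 0.00152, SE 0.334). Col1a2 (ENSMUSG00000029661, chromosome 6, 4504814 to 4541544) was at 2139, 2989 and 1262 CPM in sham and 10607, 8329, 5122 and 8049 CPM in radiated skin (log2 fold change 1.95, adjusted p 0.00537, SE 0.363). In these 3 genes radiated replicate 1 was the highest and replicate 3 the lowest of the radiated samples, with no overlap with sham skin. Col12a1, which decorates type I fibrils, rose from 76.9, 254 and 126 CPM in sham to 3303, 1968, 1315 and 1941 CPM in radiated skin (log2 fold change 3.84, adjusted p 0.00112, SE 0.4996), the largest fold of the list. Col5a1 (log2 fold change 2.61, adjusted p 0.000265), Col5a2 (log2 fold change 2.83, adjusted p 0.00065) and Col6a3 (log2 fold change 2.36, adjusted p 0.00106) rose as well, and Col11a1 (log2 fold change 0.59, adjusted p 0.189), Col11a2 (log2 fold change -0.34, adjusted p 0.386) and Col16a1 (log2 fold change 0.47, adjusted p 0.131) did not pass the test. Col16a1 passed without sham replicate 2 (adjusted p 0.0378).

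Of 26 genes for collagen processing and crosslinking 21 rose and 1 fell (median 1.58; no fall was called without radiated replicate 1, radiated replicate 4, sham replicate 1 or sham replicate 2). Lox, lysyl oxidase, which crosslinks collagen, was at 17.5, 29.7 and 10.8 CPM in sham and 164, 139, 161 and 174 CPM in radiated skin (log2 fold change 3.08, adjusted p 0.000509, SE 0.329). Its relatives, also crosslinking enzymes, were higher: Loxl1 (log2 fold change 2.23, adjusted p 0.000199), Loxl2 (log2 fold change 2.002, adjusted p 0.000571), Loxl3 (log2 fold change 2.03, adjusted p 0.000267) and Loxl4 (log2 fold change 1.27, adjusted p 0.00346). Of the 31-base words of Loxl2, 46.4% occur in other genes. Serpinh1, the collagen chaperone HSP47, rose from 83.96, 106 and 47.7 CPM in sham to 226, 182, 194 and 211 CPM in radiated skin (log2 fold change 1.396, adjusted p 0.00511, SE 0.256). Bmp1, the C-propeptidase of procollagen, rose by 2.06 (adjusted p 0.000141) and its enhancer Pcolce by 1.905 (adjusted p 0.000454). Pcolce2 was the member that fell (log2 fold change -0.87, adjusted p 0.0202). Pcolce2 did not pass without radiated replicate 1 or 4 or without sham replicate 1 or 2 (adjusted p up to 0.0768).

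Matricellular and fibrous glycoproteins rose in 27 of 33 tested members and fell in none (median 2.02; 1 member fell without sham replicate 3). Spp1 (ENSMUSG00000029304, chromosome 5, 104435118 to 104441050), osteopontin, a secreted phosphoprotein of macrophages and repair tissue, was at 1.24, 1.73 and 0.568 CPM in sham and 136, 91.1, 35.4 and 96.8 CPM in radiated skin, a log2 fold change of 6.27 (adjusted p 0.000302, SE 0.581). Tnc, tenascin C, which appears under regenerating epidermis, was at 18.2, 119.7 and 53.9 CPM in sham and 3176, 2654, 3885 and 5153 CPM in radiated skin (log2 fold change 5.902, adjusted p 0.000706, SE 0.692). Fn1, fibronectin, rose from 425, 502 and 323 CPM in sham to 2244, 1798, 1549 and 2123 CPM in radiated skin (log2 fold change 2.25, adjusted p 0.00039, SE 0.224). Postn, periostin, rose from 213, 348 and 101 CPM in sham to 1329.7, 1023, 490.3 and 659 CPM in radiated skin (log2 fold change 2.02, adjusted p 0.015, SE 0.478). Ccn2, the growth factor often used as a readout of TGF-beta, was at 40.8, 37.9 and 15.6 CPM in sham and 20.1, 26.7, 24.96 and 17.6 CPM in radiated skin, with a log2 fold change of -0.45 (adjusted p 0.333, SE 0.319). Ccn2 passed without sham replicate 3 (adjusted p 0.0244).

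Matrix proteases and their inhibitors rose in 17 of 23 tested members and fell in 1 (median 1.97). Members such as Mmp10, with 4 counts in all of sham skin, passed the count filter through the radiated samples alone. The count of risers carries that choice. Beside Mmp10, the collagenase Mmp13 was at 0.265, 1.47 and 0.0516 CPM in sham and 61.5, 54.9, 47.6 and 64.2 CPM in radiated skin (log2 fold change 6.56, adjusted p 0.000519, SE 0.706). Mmp3, stromelysin-1, was at 12.6, 10.6 and 4.65 CPM in sham and 371, 247, 462 and 673 CPM in radiated skin (log2 fold change 5.597, adjusted p 0.000267, SE 0.504). Mmp2, the gelatinase of fibroblasts, rose by 3.38 (adjusted p 0.000427), and Mmp9, the gelatinase of neutrophils and keratinocytes, by 4.63 (adjusted p 0.000697). The inhibitors moved in different directions: Timp1 was at 0.132, 0.477 and 0.568 CPM in sham and 25.9, 32.3, 46.2 and 39.1 CPM in radiated skin (log2 fold change 6.56, adjusted p 0.000114, SE 0.432). Timp3 fell from 725, 832 and 451 CPM in sham to 270.1, 311, 249 and 189 CPM in radiated skin (log2 fold change -1.35, adjusted p 0.00453, SE 0.242).

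Genes of TGF-beta and activin signalling rose in 10 of 24 tested members and fell in 3 (median 0.66). Inhba, the subunit of activin A, rose from 33.2, 49.1 and 35.2 CPM in sham to 509, 527, 437 and 807 CPM in radiated skin (log2 fold change 3.91, adjusted p 0.000141, SE 0.2795). Tgfb1 rose by 1.58 (adjusted p 0.00126), whereas Tgfb2 (log2 fold change -0.52, adjusted p 0.272) and Tgfb3 (log2 fold change 0.65, adjusted p 0.13) did not pass the test. Bmp4 (log2 fold change -1.93, adjusted p 0.0057), Ltbp4 (log2 fold change -1.05, adjusted p 0.0073) and Bmpr1a (log2 fold change -0.67, adjusted p 0.0257) were lower. Of 15 myofibroblast and pericyte genes 3 rose and 1 fell (median 0.34); the falling count was 5 without sham replicate 3 and 0 without radiated replicate 1, 3 or 4 or sham replicate 1. The share of these genes called was near that of all genes. Acta2 (ENSMUSG00000035783, chromosome 19, 34241090 to 34255590), smooth muscle actin, which also marks vessel and hair muscles, was at 58.2, 55.5 and 31.8 CPM in sham and 57.3, 61.8, 63.8 and 62.9 CPM in radiated skin. These groups overlapped and its log2 fold change was 0.38 (adjusted p 0.209, SE 0.206). The risers were the PDGF receptors Pdgfrb (log2 fold change 2.27, adjusted p 0.00136) and Pdgfra (log2 fold change 2.24, adjusted p 0.00016) and the pericyte gene Rgs5 (log2 fold change 1.55, adjusted p 0.00957), and Tpm2, a tropomyosin, fell (log2 fold change -1.13, adjusted p 0.0206). Of 19 fibroblast markers 10 rose and 3 fell (median 1.02; 1 fell without radiated replicate 4 or sham replicate 2). Prg4, lubricin, rose from 3.27, 2.297 and 4.44 CPM in sham to 76.8, 80.4, 122 and 146 CPM in radiated skin (log2 fold change 5.05, adjusted p 0.000121, SE 0.346). Sfrp2, a modulator of Wnt signals, rose from 5.43, 2.08 and 1.497 CPM in sham to 78.01, 41.1, 65.3 and 55.2 CPM in radiated skin (log2 fold change 4.35, adjusted p 0.000543, SE 0.476). Lrig1, a regulator found in papillary dermis and follicle stem cells, fell (log2 fold change -1.11, adjusted p 0.0146). Tgfb2 passed without sham replicate 3 (adjusted p 0.046). Tgfb3 passed without sham replicate 1 (adjusted p 0.0495). Bmpr1a did not pass without radiated replicate 1 or 4 or without sham replicate 2 (adjusted p up to 0.0716). Tpm2 did not pass without radiated replicate 1, 3 or 4 or without sham replicate 1 (adjusted p up to 0.0613). Lrig1 did not pass without sham replicate 2 (adjusted p 0.0509).

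Neutrophil genes rose in 20 of 23 tested members and fell in none, with a median log2 fold change of 5.74, or 5.53 with members absent from sham skin set at their lower bound. Some members were so low in sham skin that they passed the count filter through the radiated samples alone, so the count carries that choice. Csf3r, the receptor for the growth factor of granulocytes, was at 2.12, 1.43 and 1.19 CPM in sham and 115, 70.4, 88.9 and 126 CPM in radiated skin (log2 fold change 6.02, adjusted p 6.62e-05, SE 0.316). Cxcr2, the receptor for Cxcl2, was at 7.28, 6.37 and 7.38 CPM in sham and 95.4, 65.6, 52.4 and 85.3 CPM in radiated skin (log2 fold change 3.46, adjusted p 0.000121, SE 0.234). Clec4d, a lectin of myeloid cells, was at 0.441, 0.1300 and 0.0516 CPM in sham and 44.1, 24.4, 18.1 and 46.2 CPM in radiated skin (log2 fold change 7.29, adjusted p 0.000234, SE 0.634). Mpo and Camp, granule genes which neutrophils transcribe in the bone marrow, did not pass the test. Mpo was at 2.47, 1.26 and 4.18 CPM in sham and 1.54, 1.44, 1.59 and 1.87 CPM in radiated skin (log2 fold change -0.65, adjusted p 0.251, SE 0.387). Camp was at 0, 0.1300 and 0.361 CPM in sham and 0.256, 0.465, 0.712 and 0.446 CPM in radiated skin (log2 fold change 1.59, adjusted p 0.197, SE 0.838). Elane, Ltf and Ly6g, a surface marker, were not tested.

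Monocyte and macrophage genes rose in 24 of 31 tested members and fell in none (median 2.42). Adgre1 (ENSMUSG00000004730, chromosome 17, 57358691 to 57483527), which encodes the macrophage antigen F4/80, was at 15.9, 13.2 and 7.18 CPM in sham and 66.4, 52.4, 39.9 and 51.6 CPM in radiated skin, a log2 fold change of 2.16 (adjusted p 0.00141, SE 0.296). Cd68, a protein of macrophage lysosomes, was at 15.1, 15.3 and 10.4 CPM in sham and 117, 71.3, 104 and 118 CPM in radiated skin (log2 fold change 2.95, adjusted p 0.000172, SE 0.238). Ccr2, the receptor of recruited monocytes, was at 37.8, 31.5 and 16.7 CPM in sham and 136, 115, 81.6 and 107 CPM in radiated skin (log2 fold change 1.98, adjusted p 0.00198, SE 0.294). Cd163 (log2 fold change 2.42, adjusted p 0.00186) and Mrc1 (log2 fold change 2.296, adjusted p 0.00257), markers of resident macrophages, rose alongside, as did Cd14 (log2 fold change 4.15, adjusted p 6.62e-05) and Nos2 (log2 fold change 2.61, adjusted p 0.0304). Gpnmb (log2 fold change 0.11, adjusted p 0.888) and Apoe (log2 fold change -0.69, adjusted p 0.239) did not pass the test; both are also made by other skin cells. Of 8 osteoclast and giant cell genes 5 rose, among them Tnfsf11, the ligand RANKL, from 0.353, 0.2600 and 0.361 CPM in sham to 22.6, 18.5, 15.3 and 17.97 CPM in radiated skin (log2 fold change 5.87, adjusted p 3.73e-05, SE 0.255), and Ctsk, cathepsin K, which fibroblasts also make (log2 fold change 2.91, adjusted p 0.0107). Nos2 did not pass without radiated replicate 1 or 4 or without sham replicate 1 or 3 (adjusted p up to 0.0743).

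Mast cell genes rose in 11 of 14 tested members and fell in 2 (median 2.23; 1 fell without radiated replicate 1 or 4 or sham replicate 1 or 2). Of these members 1 had no count in sham skin and was tested through the radiated samples alone. Tpsb2, a tryptase, was at 1.46, 3.21 and 2.01 CPM in sham and 30.3, 18.2, 27.6 and 27.7 CPM in radiated skin (log2 fold change 3.58, adjusted p 0.00027, SE 0.324). Mcpt4, a chymase, was at 4.503, 14.3 and 6.56 CPM in sham and 42.97, 31.4, 41.5 and 47.6 CPM in radiated skin (log2 fold change 2.31, adjusted p 0.00329, SE 0.385). Kit was at 15.7, 18.5 and 34.5 CPM in sham and 29.4, 24.1, 34.7 and 29.8 CPM in radiated skin (log2 fold change 0.42, adjusted p 0.285, SE 0.268); melanocytes also express it. Mrgprb3 fell by 4.06 (adjusted p 0.00341) and Mrgprb2, the receptor for peptide triggers on mast cells, by 1.97 (adjusted p 0.0229). The related pseudogene Mrgprb11-ps (ENSMUSG00000099889, chromosome 7, 48684621 to 48685614) was among the 8 largest decreases, from 25.8, 14.7 and 18.5 CPM in sham to 0.469, 1.98, 0.503 and 0 CPM in radiated skin (log2 fold change -4.66, adjusted p 0.00364, SE 0.795). Kit passed without sham replicate 3 (adjusted p 0.0196). Mrgprb2 did not pass without radiated replicate 1 or 4 or without sham replicate 1 or 2 (adjusted p up to 0.0644).

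Langerhans and dendritic cell genes rose in 4 and fell in 2 of 19 tested members (median 0.67), a called share near that of all genes. Without sham replicate 2, 7 rose and none fell; no fall was called without radiated replicate 1, 2 or 4 either, and 1 without radiated replicate 3 or sham replicate 1. Cd207 (ENSMUSG00000034783, chromosome 6, 83671215 to 83677857), langerin, which defines Langerhans cells, was at 4.02, 4.03 and 0.465 CPM in sham and 0.683, 0.543, 0.377 and 0.892 CPM in radiated skin, with a log2 fold change of -2.15 (adjusted p 0.0419, SE 0.658). Sham replicate 3 lay within the radiated range, and the adjusted p of Cd207 rose to 0.13 on leaving out single libraries. Epcam, which keratinocytes of the follicle also express, fell (log2 fold change -1.25, adjusted p 0.0408). The class II genes H2-Aa (log2 fold change 0.68, adjusted p 0.2) and Cd74 (log2 fold change 0.72, adjusted p 0.128) did not pass the test. Ccr7, the homing receptor of migrating dendritic cells, rose from 0.221, 0.2600 and 0 CPM in sham to 0.811, 1.24, 1.68 and 1.34 CPM in radiated skin (log2 fold change 2.94, adjusted p 0.0153, SE 0.696). Cd207 did not pass without radiated replicate 1, 2, 3 or 4 or without sham replicate 1 or 2 (adjusted p up to 0.13). Epcam did not pass without radiated replicate 1, 2 or 4 or without sham replicate 2 (adjusted p up to 0.159). Cd74 passed without sham replicate 2 (adjusted p 0.0426).

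T and NK cell genes rose in 11 and fell in 4 of 27 tested members (median 0.81; 2 fell without sham replicate 2). Cd4, which macrophages can also carry, rose from 4.41, 5.24 and 5.11 CPM in sham to 41.6, 27.2, 35.4 and 28.1 CPM in radiated skin (log2 fold change 2.79, adjusted p 0.000143, SE 0.205). Gzmb, granzyme B, rose from 0.5297, 0.0867 and 0 CPM in sham to 3.12, 2.64, 3.56 and 2.85 CPM in radiated skin (log2 fold change 3.86, adjusted p 0.0063, SE 0.743). Cd3e, a chain of the T cell receptor complex, was at 6.97, 11.1 and 3.77 CPM in sham and 6.74, 6.63, 4.398 and 6.73 CPM in radiated skin (log2 fold change -0.22, adjusted p 0.695, SE 0.351), and Cd3d fell (log2 fold change -0.80, adjusted p 0.0268). Skint5 and Skint1, of a family which the epidermis makes and on which its resident gamma-delta T cells depend, fell. Skint5 went from 79.4, 46.7 and 48.7 CPM in sham to 2.09, 8.804, 2.35 and 0.178 CPM in radiated skin (log2 fold change -4.06, adjusted p 0.00834, SE 0.836), and Skint1 fell by 2.16 (adjusted p 0.0486). Of 7 B and plasma cell genes 1 rose (Cd79b, log2 fold change 5.58, adjusted p 0.00221) and 1 fell (Ighg1, log2 fold change -4.09, adjusted p 0.00706), and 6 listed genes, among them Cd79a, were not tested. This called share was near that of all genes. Of 5 eosinophil and basophil genes 2 rose, of which Ccr3, the eotaxin receptor, was at 0.221, 0 and 0.0516 CPM in sham and 1.37, 0.853, 1.21 and 1.96 CPM in radiated skin (log2 fold change 3.84, adjusted p 0.00737, SE 0.769). Cd3d did not pass without radiated replicate 2 or without sham replicate 2 or 3 (adjusted p up to 0.0921). Skint1 did not pass without radiated replicate 1 or 3 or without sham replicate 1, 2 or 3 (adjusted p up to 0.115).

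Chemokine genes rose in 17 and fell in 2 of 33 tested members (median 1.37), of which 1 had no count in sham skin and was tested through the radiated samples alone. The risers were led by ligands for neutrophils and monocytes. Cxcl5 was at 4.33, 3.81 and 6.71 CPM in sham and 263, 133, 116 and 206 CPM in radiated skin (log2 fold change 5.23, adjusted p 0.000143, SE 0.381). Cxcl1 was at 0.795, 1.52 and 0.671 CPM in sham and 35.97, 25.8, 25.8 and 50.9 CPM in radiated skin (log2 fold change 5.15, adjusted p 0.000166, SE 0.409). Ccl2 was at 1.37, 1.39 and 0.361 CPM in sham and 10.97, 5.62, 8.38 and 11.9 CPM in radiated skin (log2 fold change 3.17, adjusted p 0.00206, SE 0.474). The members that fell were the keratinocyte chemokines for skin-homing T cells. Ccl27b (ENSMUSG00000096826, chromosome 4, 42655251 to 42656005) was at 35.4, 21.2 and 9.91 CPM in sham and 0.427, 1.94, 0.168 and 0.0892 CPM in radiated skin (log2 fold change -5.001, adjusted p 0.00356, SE 0.848). Ccl27a was at 54.7, 79.9 and 38.3 CPM in sham and 5.21, 6.71, 7.54 and 4.77 CPM in radiated skin (log2 fold change -3.21, adjusted p 0.000239, SE 0.281). All 31-base words of Ccl27b (100%) and 57% of those of Ccl27a occur in other genes, so the split between near-identical copies is uncertain.

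Of 35 cytokine and receptor genes of barrier inflammation 21 rose and 4 fell (median 1.66). Il1b was at 0.7505, 0.997 and 0.258 CPM in sham and 119.9, 65.00, 46.8 and 93.9 CPM in radiated skin (log2 fold change 6.93, adjusted p 0.000143, SE 0.5196). Il6 was at 0.0883, 0.347 and 0.0516 CPM in sham and 9.77, 13.7, 12.1 and 34.9 CPM in radiated skin (log2 fold change 6.72, adjusted p 0.000567, SE 0.743). Il24, a keratinocyte cytokine of wounds, and Csf3, which drives neutrophil production, had no count in sham skin and passed the count filter through the radiated samples alone, so the count of risers carries that choice. Il24 reached 1.66, 2.71, 4.31 and 8.92 CPM, at least 96.5-fold higher against the floor. Csf3 reached 3.12, 1.67, 3.39 and 5.13 CPM, at least 73.1-fold higher. Il33 (log2 fold change 2.45, adjusted p 0.00264) and its receptor Il1rl1 (log2 fold change 5.09, adjusted p 0.000143) both rose. Il1a was at 5.69, 6.24 and 6.81 CPM in sham and 6.27, 6.98, 5.32 and 7.89 CPM in radiated skin (log2 fold change 0.13, adjusted p 0.669, SE 0.194). The fallers were Il20ra (log2 fold change -2.09, adjusted p 0.0158), Il20rb (log2 fold change -2.11, adjusted p 0.000578), Il22ra1 (log2 fold change -1.300, adjusted p 0.00828) and Il22ra2 (log2 fold change -2.99, adjusted p 0.0181). Their products are receptor chains or, for Il22ra2, a soluble protein that binds cytokines of the IL-20 and IL-22 family. Il22ra2 did not pass without radiated replicate 1 or sham replicate 1 (adjusted p up to 0.0541).

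Complement genes rose in 18 and fell in none of 22 tested members (median 2.42), and 18 rose whichever library was left out, with 1 fall without sham replicate 3. C3, the central component, was at 257, 168 and 110.4 CPM in sham and 1256, 875, 953 and 708 CPM in radiated skin (log2 fold change 2.45, adjusted p 0.00119, SE 0.324). Cfb, factor B, was at 23.7, 18.98 and 14.8 CPM in sham and 192, 160.2, 210.5 and 211 CPM in radiated skin (log2 fold change 3.38, adjusted p 9.16e-05, SE 0.206). Of the 31-base words of Cfb, 75.5% occur in other genes, so its count cannot be fully separated from theirs. Interferon-stimulated genes rose in 14 and fell in none of 29 (median 0.99), but the count depended on the samples in the fit: 5 rose in 1 fit of all 35 samples, 6 without radiated replicate 1 or sham replicate 3, 7 without radiated replicate 4, and 20 without sham replicate 1, while DESeq2 called 20 on all 7 libraries. Rsad2, viperin, was at 13.6, 4.25 and 10.6 CPM in sham and 44.4, 26.5, 30.95 and 40.2 CPM in radiated skin (log2 fold change 1.96, adjusted p 0.00626, SE 0.376). Isg15, a ubiquitin-like modifier, was at 6.84, 1.52 and 4.44 CPM in sham and 10.03, 6.55, 6.53 and 4.95 CPM in radiated skin (log2 fold change 0.77, adjusted p 0.253, SE 0.456). Sham replicate 1 held the highest mean level of the list among sham samples, with 3.90, 2.60 and 3.33 log2 CPM in sham against 4.72, 4.13, 4.36 and 4.40 in radiated skin.

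Genes of the p53 response were called at a share near that of all genes. Of 30 tested p53 targets 5 rose and 3 fell, and the median was 0.05; 3 rose without radiated replicate 1 or 2 or sham replicate 2, 2 rose and 5 fell without sham replicate 3. DESeq2 called 8 rises and 1 fit of all 35 samples 3. Cdkn1a (ENSMUSG00000023067, chromosome 17, 29090976 to 29100727), the cell cycle inhibitor p21, was at 317, 477 and 356 CPM in sham and 426, 326, 429 and 354 CPM in radiated skin, overlapping groups with a log2 fold change of 0.05 (adjusted p 0.883, SE 0.183). Mdm2, the feedback inhibitor of p53, was at 57.1, 76.7 and 66.5 CPM in sham and 85.4, 82.8, 70.2 and 104 CPM in radiated skin (log2 fold change 0.40, adjusted p 0.103, SE 0.164). Gdf15, a stress-induced secreted factor, rose from 0.221, 0 and 0 CPM in sham to 0.6401, 0.814, 1.42 and 0.401 CPM in radiated skin (log2 fold change 3.39, adjusted p 0.034, SE 0.979), with few counts in sham skin. Bax (log2 fold change 0.89, adjusted p 0.00546), Fas (log2 fold change 0.97, adjusted p 0.0471), Phlda3 (log2 fold change 0.85, adjusted p 0.018) and Pmaip1 (log2 fold change 1.49, adjusted p 0.00058) were the other members that rose, and Trp53inp1 (log2 fold change -1.01, adjusted p 0.0115), Rrm2b (log2 fold change -0.68, adjusted p 0.034) and Xpc (log2 fold change -0.60, adjusted p 0.0105) fell. Gdf15 did not pass without sham replicate 2 or 3 (adjusted p up to 0.0914). Fas did not pass without radiated replicate 1, 2 or 4 or without sham replicate 2 or 3 (adjusted p up to 0.127). Phlda3 did not pass without sham replicate 2 or 3 (adjusted p up to 0.0635). Rrm2b did not pass without radiated replicate 1, 2, 3 or 4 or without sham replicate 1 or 2 (adjusted p up to 0.112).

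Of 24 genes associated with senescence 14 rose and none fell (median 1.13). Plaur, the urokinase receptor, rose from 3.53, 3.55 and 3.46 CPM in sham to 41.8, 32.04, 34.8 and 50.5 CPM in radiated skin (log2 fold change 3.54, adjusted p 9.04e-05, SE 0.208). Other risers, such as Il6, Mmp3 and Timp1, are secreted factors described above with the cytokines and the matrix. The cell cycle inhibitor Cdkn2b was at 2.69, 3.68 and 1.497 CPM in sham and 2.01, 1.75, 1.59 and 0.624 CPM in radiated skin (log2 fold change -0.78, adjusted p 0.238, SE 0.447). Lmnb1, a lamin known to decline in senescent cells, was at 46.3, 63.9 and 80.7 CPM in sham and 93.6, 68.8, 70.5 and 84.7 CPM in radiated skin (log2 fold change 0.37, adjusted p 0.201, SE 0.195). Cdkn2a, which encodes p16, was not tested. Of 38 proliferation genes 6 rose and none fell (median 0.36); 15 rose without sham replicate 3 and 1 fell without sham replicate 2. With all libraries the share that rose was near that of all genes (15.2%). Mki67 (ENSMUSG00000031004, chromosome 7, 135689784 to 135716361), the marker of cycling cells, was at 216, 175 and 344 CPM in sham and 224, 237, 278 and 209.9 CPM in radiated skin (log2 fold change 0.01, adjusted p 0.986, SE 0.218). Ccne1, cyclin E1, had the largest fold of the risers (log2 fold change 1.39, adjusted p 0.0339), followed by Rrm2 (log2 fold change 0.96, adjusted p 0.00842) and Plk1 (log2 fold change 0.90, adjusted p 0.0413). Ccne1 did not pass without radiated replicate 1, 2, 3 or 4 or without sham replicate 1 or 2 (adjusted p up to 0.094). Plk1 did not pass without radiated replicate 1, 3 or 4 or without sham replicate 1 or 2 (adjusted p up to 0.121).

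Vessel genes rose in 24 and fell in none of 29 tested members (median 1.75). Selp, P-selectin, on which leukocytes roll, was at 5.39, 5.07 and 2.58 CPM in sham and 62.3, 53.9, 102 and 119 CPM in radiated skin (log2 fold change 4.31, adjusted p 0.000308, SE 0.403). Vcam1, an adhesion molecule of activated endothelium, was at 5.297, 6.15 and 6.35 CPM in sham and 75.3, 45.4, 83.02 and 82.9 CPM in radiated skin (log2 fold change 3.64, adjusted p 0.000121, SE 0.249). Pecam1, a general endothelial marker, was at 52.3, 59.5 and 34.9 CPM in sham and 164, 156, 165 and 193 CPM in radiated skin (log2 fold change 1.83, adjusted p 0.000539, SE 0.2003). Cdh5, endothelial cadherin, was at 13.5, 16.03 and 7.28 CPM in sham and 54.9, 48.1, 77.99 and 72.2 CPM in radiated skin (log2 fold change 2.41, adjusted p 0.00103, SE 0.307). Prox1, the lymphatic regulator, rose (log2 fold change 1.17, adjusted p 0.0432). Lyve1, a receptor of lymphatic vessels and some macrophages, was at 58.9, 17.2 and 22.97 CPM in sham and 51.1, 37.2, 53.1 and 58.6 CPM in radiated skin (log2 fold change 0.64, adjusted p 0.263, SE 0.393). Schwann cell and nerve genes rose in 3 and fell in 2 of 20 (median 0.28; 5 rose without sham replicate 1, and 1 fell without radiated replicate 1, 3 or 4 or sham replicate 1 or 3). Their called share was near that of all genes. The neurotrophic factor Artn rose (log2 fold change 3.95, adjusted p 0.00149). Of 13 melanocyte genes 1 rose and 1 fell (median -1.18); the falling count was 6 without sham replicate 2, 2 without sham replicate 1 and 0 without radiated replicate 1 or sham replicate 3, and none rose without radiated replicate 3 or 4. Without sham replicate 3, 2 rose. DESeq2 called 4 falls, and 1 fit of all 35 samples called no rise and no fall. The member that rose was Ednrb (log2 fold change 0.79, adjusted p 0.0251), which endothelium also expresses, and the one that fell was Slc24a5 (log2 fold change -1.87, adjusted p 0.0224), a transporter of pigment granules that shares 40.2% of its 31-base words with other genes. Prox1 did not pass without radiated replicate 1, 2 or 4 or without sham replicate 1 or 3 (adjusted p up to 0.109). Lyve1 passed without sham replicate 1 (adjusted p 0.00513). Ednrb did not pass without radiated replicate 3 or 4 or without sham replicate 1 (adjusted p up to 0.0694). Slc24a5 did not pass without radiated replicate 1 or sham replicate 3 (adjusted p up to 0.0691).

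Of 27 adipocyte genes 1 rose and 4 fell (median -0.13); the falling count was 6 without radiated replicate 2, 2 without any other radiated replicate and 1 without sham replicate 1 or 2, and 2 rose without sham replicate 1 and 3 without sham replicate 2. Adipoq (ENSMUSG00000022878, chromosome 16, 23146536 to 23158028), adiponectin, was at 33.9, 56.7 and 25.9 CPM in sham and 56.6, 50.03, 31.5 and 34.5 CPM in radiated skin (log2 fold change 0.19, adjusted p 0.688, SE 0.305). Plin1, the lipid droplet coat protein, was at 104, 144 and 60.3 CPM in sham and 125, 163, 137 and 118 CPM in radiated skin (log2 fold change 0.44, adjusted p 0.265, SE 0.272). Car3, carbonic anhydrase 3, fell from 457, 314 and 187 CPM in sham to 188, 182, 103 and 92.8 CPM in radiated skin (log2 fold change -1.14, adjusted p 0.0419, SE 0.348). Car3 did not pass without radiated replicate 3 or 4 or without sham replicate 1 or 2 (adjusted p up to 0.141).

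Skeletal muscle genes fell in 18 of 28 tested members, with 1 rise and a median log2 fold change of -1.77. The largest falls were those of Pvalb, Mstn, Actn3 and Myh4. Myh4 (ENSMUSG00000057003, chromosome 11, 67238029 to 67260446), the myosin of the fastest fibres, was at 6326, 3349 and 4129 CPM in sham and 459, 509, 62.1 and 72.9 CPM in radiated skin, a log2 fold change of -4.02 (adjusted p 0.00641, SE 0.777). Pvalb (ENSMUSG00000005716, chromosome 15, 78191114 to 78206400), parvalbumin, the calcium buffer of fast fibres, was at 377, 173 and 416 CPM in sham and 12.4, 15.6, 2.39 and 1.204 CPM in radiated skin (log2 fold change -5.301, adjusted p 0.00251, SE 0.8296). Mstn (ENSMUSG00000026100, chromosome 1, 53061640 to 53068079), myostatin, the brake on muscle growth, was at 61.1, 50.2 and 45.6 CPM in sham and 2.18, 2.83, 0.921 and 0.847 CPM in radiated skin (log2 fold change -4.89, adjusted p 0.000211, SE 0.412). In all 3 genes radiated replicates 3 and 4 were lower than replicates 1 and 2. Acta1 (ENSMUSG00000031972, chromosome 8, 123891769 to 123894751), skeletal actin, common to all fibre types, was at 982, 413 and 569 CPM in sham and 251, 381, 389 and 242 CPM in radiated skin (log2 fold change -1.01, adjusted p 0.0409, SE 0.306), a smaller change. Myh2, the myosin of fast oxidative fibres, was the member that rose, from 168, 104 and 150.4 CPM in sham to 424, 373, 147 and 291 CPM in radiated skin (log2 fold change 1.18, adjusted p 0.0332, SE 0.339); 2 members rose without sham replicate 1. Myh4 and Myh2 share 30.4% and 34.5% of their 31-base words with other genes. Myh7 (log2 fold change -0.42, adjusted p 0.336) and Des, desmin (log2 fold change -0.05, adjusted p 0.913), did not pass the test. The mean log2 CPM of the list was 9.00, 7.78 and 8.29 in sham, 6.86, 7.23, 6.06 and 6.02 in radiated and 5.79, 8.61, 8.22 and 9.20 in control skin of week 4, a wide range also among unirradiated samples. How much muscle each biopsy held was not measured. Of 12 genes of muscle regeneration 2 rose and 1 fell (median 0.43), a called share near that of all genes. Myh3, embryonic myosin, was at 0.353, 0.173 and 0 CPM in sham and 17.1, 1.44, 0.461 and 2.77 CPM in radiated skin (log2 fold change 4.902, adjusted p 0.036, SE 1.44), with radiated replicate 1 far above the others. Ncam1 rose (log2 fold change 1.199, adjusted p 0.0346) and Mrln fell (log2 fold change -1.86, adjusted p 0.0137). No rise was called without radiated replicate 1 or any of the sham replicates, 1 without radiated replicate 2 or 4, no fall without sham replicate 1, and 3 fell without sham replicate 2. Acta1 did not pass without radiated replicate 1, 2 or 4 or without sham replicate 1 or 3 (adjusted p up to 0.133). Myh2 did not pass without radiated replicate 1, 2 or 4 or without sham replicate 2 or 3 (adjusted p up to 0.104). Myh3 did not pass without radiated replicate 1 or 4 or without sham replicate 1, 2 or 3 (adjusted p up to 0.101). Ncam1 did not pass without radiated replicate 1 or 2 or without sham replicate 1, 2 or 3 (adjusted p up to 0.0935). Mrln did not pass without sham replicate 1 (adjusted p 0.0598).

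Transcripts of the mitochondrial genome fell in 12 of 13 tested genes (median -0.87); 7 fell without radiated replicate 1 or 4. Between 62.8% and 100% of the 31-base words of 7 of these genes, mt-Co1 (63.9%) among them, occur in other genes, so their counts depend on how reads were shared out. mt-Co1, a subunit of cytochrome oxidase, was at 5126, 3641 and 2830.1 CPM in sham and 1891, 2088, 2333 and 1900.5 CPM in radiated skin (log2 fold change -0.87, adjusted p 0.0219, SE 0.225). The mean log2 CPM of the list was 10.33, 9.96 and 9.48 in sham and 8.95, 9.07, 8.97 and 8.94 in radiated skin. Muscle is rich in mitochondria; its list level in the same samples is given above, and its part in this difference was not tested. mt-Co1 did not pass without radiated replicate 1, 2 or 4 or without sham replicate 1 (adjusted p up to 0.0715).

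Iron handling genes rose in 8 and fell in 3 of 13 tested members (median 1.43; 1 fell without sham replicate 2). Hp, haptoglobin, which binds free haemoglobin, was at 55.8, 53.6 and 53.6 CPM in sham and 790.2, 661, 880.4 and 932 CPM in radiated skin (log2 fold change 3.95, adjusted p 3.73e-05, SE 0.176). Fth1 and Ftl1, the ferritin chains, rose by 1.83 and 1.78 (adjusted p 0.00126 and 0.000417). For Ftl1, 64.1% of the 31-base words occur in other genes, so its count cannot be fully separated from theirs. Hamp2 (ENSMUSG00000056978, chromosome 7, 30922372 to 30924681), a hepcidin gene, had the largest decrease among genes averaging at least 5 CPM, from 19.6, 8.19 and 8.67 CPM in sham to 0.0427, 0.776, 0 and 0.0446 CPM in radiated skin (log2 fold change -5.68, adjusted p 0.00265, SE 0.8997). It shares 34.5% of its 31-base words with other genes. Slc40a1, the iron exporter ferroportin, fell from 24.9, 174 and 109 CPM in sham to 20.7, 14.04, 28.9 and 12.8 CPM in radiated skin (log2 fold change -2.38, adjusted p 0.015, SE 0.561). Of 23 antioxidant genes under NRF2, the regulator of the oxidative stress response, 10 rose and 4 fell (median 0.39; 2 fell without radiated replicate 1 or sham replicate 2). Gsta4, a glutathione transferase for lipid peroxidation products, rose from 4.41, 4.12 and 4.28 CPM in sham to 110.3, 154, 132 and 186 CPM in radiated skin (log2 fold change 5.13, adjusted p 3.73e-05, SE 0.2199). Nqo1, a common readout of NRF2, was at 6.67, 9.58 and 3.51 CPM in sham and 6.79, 9.502, 7.58 and 7.27 CPM in radiated skin (log2 fold change 0.28, adjusted p 0.569, SE 0.322), and Gclc, of glutathione synthesis, fell (log2 fold change -1.02, adjusted p 0.0186). Slc40a1 did not pass without sham replicate 2 (adjusted p 0.0542). Gclc did not pass without radiated replicate 1 or 4 or without sham replicate 2 or 3 (adjusted p up to 0.063).

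Of 20 immediate early genes, which respond within minutes to handling and stress, 7 rose and 1 fell (median 0.22); 5 fell without sham replicate 3, 2 without radiated replicate 3, and none without radiated replicate 1 or sham replicate 2. Fosl1, an AP-1 subunit of migrating keratinocytes, rose from 1.94, 2.47 and 0.981 CPM in sham to 19.4, 23.5, 42.3 and 42.8 CPM in radiated skin (log2 fold change 4.18, adjusted p 0.000476, SE 0.441); it shares 54.5% of its 31-base words with other genes. Fos, an AP-1 subunit induced by serum and stress, was at 179.7, 197 and 23.6 CPM in sham and 107, 154, 92.7 and 144 CPM in radiated skin (log2 fold change -0.07, adjusted p 0.947, SE 0.575). In control skin of week 4, set against the same sham samples, 11 of the 20 immediate early genes rose and none fell. Against this control skin, 5 of them were higher and 15 lower in radiated skin of week 4. Rises of this list against sham skin thus also occurred in control skin, and their cause was not tested. Of 17 circadian clock genes, which move with the hour of sampling, 1 rose and 4 fell (median -0.37), with Hlf (log2 fold change -2.28, adjusted p 0.00237) among the fallers. Clock genes were called at a share near that of all genes. Arntl, a core clock gene, was at 45.3, 44.9 and 31.2 CPM in sham and 34.8, 31.8, 38.7 and 30.1 CPM in radiated skin (log2 fold change -0.21, adjusted p 0.401, SE 0.174). Of 21 Hox genes, which keep the memory of body position, 3 rose and 5 fell (median -0.02; 1 rose without radiated replicate 1, 3 or 4 or sham replicate 3, or in 1 fit of all 35 samples). Hoxb8 fell from 36.8, 35.3 and 41.6 CPM in sham to 12.3, 12.8, 4.48 and 9.19 CPM in radiated skin (log2 fold change -1.92, adjusted p 0.00307, SE 0.314). Hoxc10 rose from 7.902, 7.24 and 6.25 CPM in sham to 21.6, 12.3, 16.9 and 14.3 CPM in radiated skin (log2 fold change 1.23, adjusted p 0.0053, SE 0.228). Whether sham and radiated biopsies came from the same place on the body was not tested. Of 7 blood cell genes 1, Slc4a1, the anion exchanger of red cells, fell (log2 fold change -3.47, adjusted p 0.0413); none fell without radiated replicate 1, 2 or 4 or sham replicate 2 or 3. The globin gene Hbb-bs was at 44.5, 34.2 and 22.1 CPM in sham and 14.3, 26.3, 26.1 and 23.99 CPM in radiated skin (log2 fold change -0.53, adjusted p 0.209, SE 0.284); 54.4% of its 31-base words occur in other genes. Slc4a1 did not pass without radiated replicate 1, 2 or 4 or without sham replicate 2 or 3 (adjusted p up to 0.176).

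**Figure D4:**
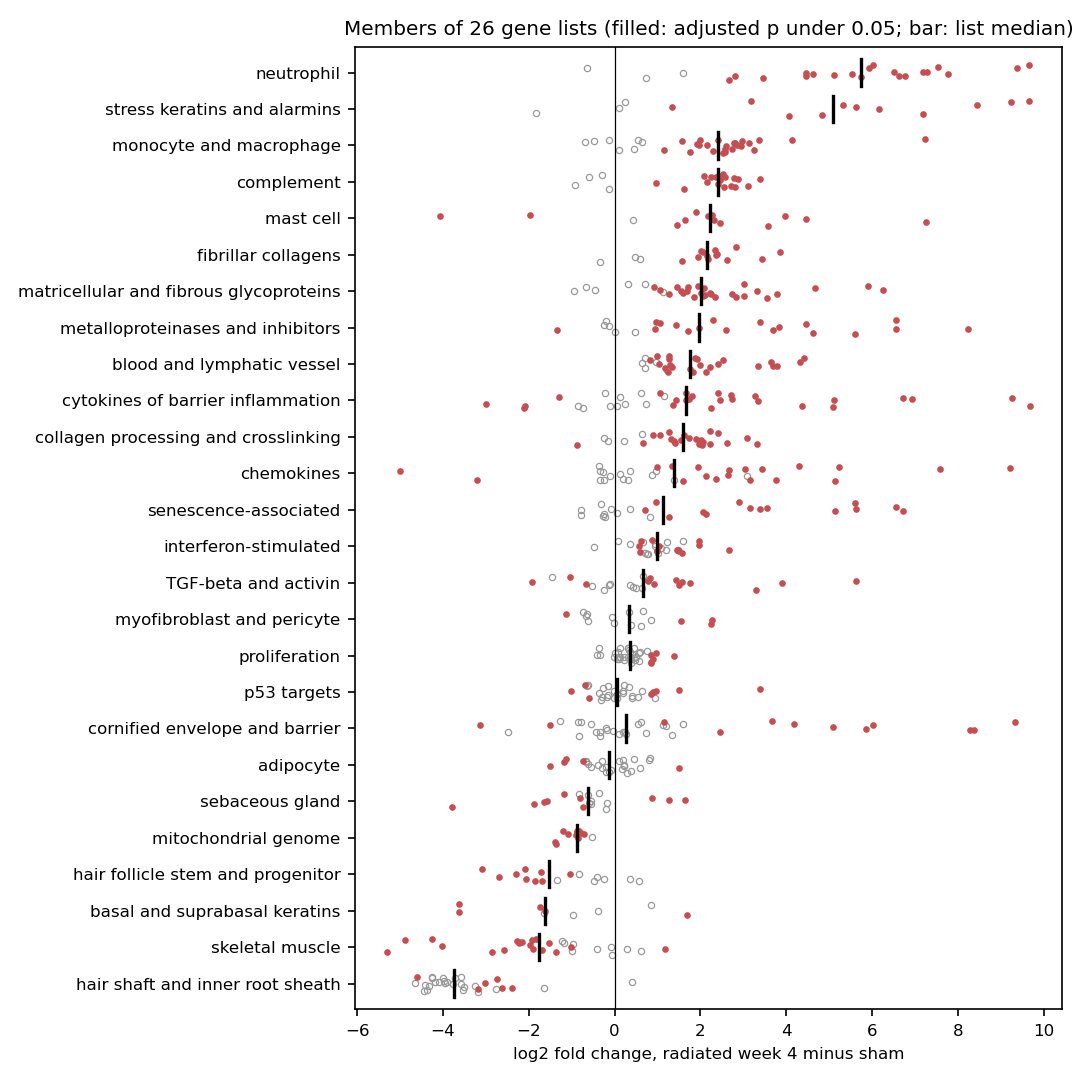
Log2 fold change of radiated week 4 minus sham skin for each tested member of 26 gene lists, with members past an adjusted p of 0.05 as filled red points, other members as open grey points and the list median as a black bar. Neutrophil genes and stress keratins lie farthest to the right (medians 5.74 and 5.08), and hair shaft genes farthest to the left (median -3.74) with few filled points.

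The same sham samples were set against radiated skin of week 3 and control skin of week 4, and since these comparisons share the sham samples their values are given side by side only. Against sham skin, 3308 of 18220 genes (18.2%) differed in radiated skin of week 3 and 655 of 17925 (3.65%) in control skin of week 4. Single libraries moved both counts: that of week 3 was 2100 without radiated replicate 2 of week 3 and 1977, 1134 and 1804 without sham replicates 1, 2 and 3, and that of control skin ran from 0 without its replicate 4, 1 without its replicate 2, 2 without its replicate 3 and 312 without its replicate 1 to 162, 281 and 1705 without sham replicates 3, 2 and 1. Of the 4899 genes that differed at week 4, 2662 were also called at week 3 in the same direction and 0 in the opposite one; in control skin of week 4, 135 were called in the same direction and 146 in the opposite one. Whether week 4 departs from week 3 was tested by comparing the radiated samples directly, which share no samples: 1 gene of 17975 (0.00556%) passed in edgeR, with 2238 genes at an unadjusted p under 0.05 and 425 calls by DESeq2. This count was 58 without replicate 4 of week 3 and 0 without any other of these 8 libraries. The gene was Agtr2 (ENSMUSG00000068122, chromosome X, 21484544 to 21489164), the type 2 angiotensin receptor, at 0.137, 0.0466, 0.228 and 0.138 CPM in radiated skin of week 3 and 2.82, 2.405, 2.39 and 2.19 CPM at week 4, a log2 difference of 4.08 (adjusted p 0.0407, SE 0.403). Its values in sham skin were 1.68, 0.2600 and 0.516 CPM, so week 4 lay above sham skin and week 3 below it; the difference of week 4 from sham skin itself did not pass (log2 fold change 1.61, adjusted p 0.0602, SE 0.5499).

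Col1a1 and Postn did not pass the direct test between weeks 4 and 3. Their values were higher in all samples of week 4 than in all of week 3. The share of all genes separated in this way was not counted. Col1a1 in radiated skin was at 3499, 3847, 8651 and 5169 CPM in week 3 and 18197, 14319, 11596 and 14828 CPM in week 4, a log2 difference of 1.49 (adjusted p 0.177, SE 0.299). The log2 fold changes from sham skin were 0.85 (adjusted p 0.194, SE 0.4201) in week 3 and 2.33 (adjusted p 0.00175, SE 0.336) in week 4. Postn was at 85.99, 220.3, 183 and 267 CPM in week 3 and 1329.7, 1023, 490.3 and 659 CPM in week 4, a log2 difference of 2.22 (adjusted p 0.161, SE 0.401). The fibrillar collagen list rose in 9 tested members in week 3 and 13 in week 4 against the same sham samples. Neutrophil genes rose in 19 tested members in week 3 and 20 in week 4. Acod1 was at 65.97, 37.1, 30.7 and 18.00 CPM in week 3 and 26.4, 9.502, 14.8 and 22.7 CPM in week 4, a log2 difference of -1.04 (adjusted p 0.365, SE 0.4197).

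Set against control skin of week 4, 8643 of 17850 genes (48.4%) differed in radiated skin of week 4. Of the 4899 genes called against sham skin, 4214 were also called here in the same direction and 21 in the opposite one; both comparisons use the same radiated samples. Krt16 was at 31.1, 22.8, 13.8 and 12.8 CPM in control skin, Col1a1 at 1159, 1156, 456 and 678 CPM and S100a9 at 0.3704, 0.354, 1.28 and 0.653 CPM, all below every radiated sample. Muscle genes were uneven in control skin: Myh4 was at 561, 5968, 3156 and 8269 CPM there, with replicate 1 close to the radiated range, and its log2 difference between radiated and control skin was -4.02 (adjusted p 0.00626, SE 0.9503). The hair shaft and inner root sheath list, at 2.07, -0.07, 5.82 and 0.45 mean log2 CPM in radiated skin, lay above all control samples in radiated replicates 1, 3 and 4, most in replicate 3, and within the control range in replicate 2. Krt71 was at 1.64, 0.663, 0.598 and 0.884 CPM in control skin, a log2 difference of 8.58 (adjusted p 0.00675, SE 2.06) in favour of radiated skin, although radiated replicate 2 at 1.47 CPM lay below control replicate 1. Of the 30 list members 21 were tested here, and 14 of them were higher and none lower than in control skin. Many members were near 0 in control skin and could pass the count filter through the radiated samples where they are high, so the count carries that choice. Krt10 was at 9084, 8038, 8294 and 8181 CPM in control skin and passed the test against radiated skin there, with a log2 difference of -2.59 (adjusted p 0.0038, SE 0.559).

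**Figure D5:**
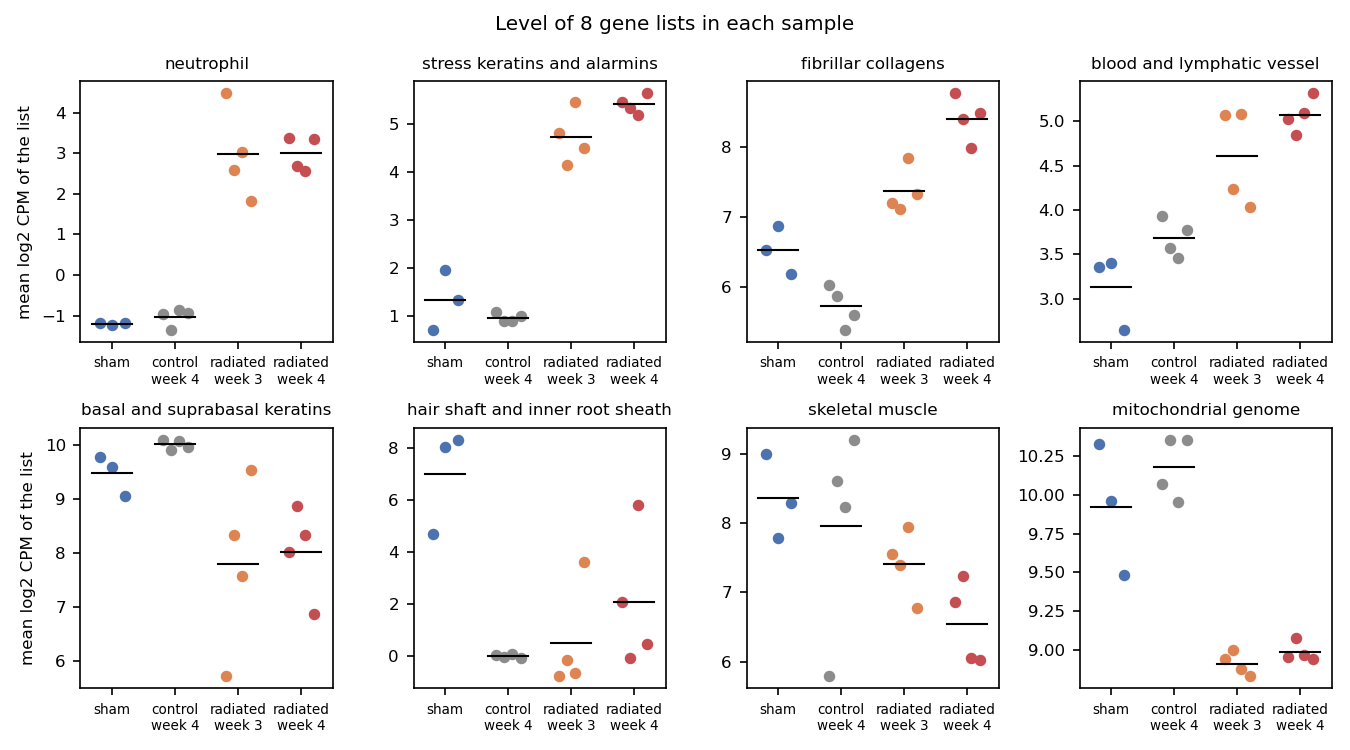
Mean log2 CPM of 8 gene lists (vertical axes, each with its own range) in every sample of sham (blue, n = 3), control week 4 (grey), radiated week 3 (orange) and radiated week 4 skin (red, n = 4 each), with black bars at the group means. Neutrophil, stress keratin and collagen levels of radiated week 4 lie above all sham and control samples, hair levels spread widely in sham and both radiated groups, with radiated week 4 replicate 3 above the lowest sham sample and 3 of the radiated week 3 samples below all control samples, and mitochondrial levels of both radiated weeks lie below all others.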

How the data were processed

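RNA from skin biopsies of female C57BL/6J mice was sequenced as bulk libraries, and 1 deposited table holds expected (estimated) counts per gene for 35 samples. Per the submitters' processing notes, the authors used Trim Galore 0.6.7, kallisto 0.46.2 and the build mm10; how transcripts were summed to genes is not given in the sources used here. Between 31.2 and 32.5% of the deposited estimated counts above 0 were not whole, and values were rounded before testing. Groups came from the sample titles.

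The main test was edgeR 4.0.16 (R 4.3.3): filterByExpr, TMM scaling, quasi-likelihood F test and Benjamini-Hochberg adjustment, fitted on the samples of each comparison alone, with an adjusted p under 0.05 as the call. Standard errors are the fold change divided by the square root of F. CPM used TMM-scaled totals, and log2 CPM a prior count of 2. A gene with no count in sham skin was given a floor of 3 counts over its 3 libraries; with 1 to 3 counts an exact 95% interval of the ratio was computed, and intervals and floors cover counting error only. Genes named are the 8 largest increases and decreases by fold (mean of at least 5 CPM, groups not overlapping), the 5 largest rises and falls in mean CPM, 15 genes named whatever their values, and members of 44 gene lists (854 entries tested, 4 symbols unmatched). Some list members are counted but not reported by name here. The members and lists were chosen with earlier results of these data known. Alternatives were DESeq2 1.42.0, RLE and total-count scaling, no and a stricter filter, 1 fit of all 35 samples, the replicate number as a block, and leaving out each library. The test was also run on simulated counts, and the outcome is not reported here. Words of 31 bases shared between genes were counted in the GENCODE M21 transcripts. Totals of 17362725 to 24144928 counts give the depth. Samples of other weeks were left out of the comparison.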

Additional observations from a re-analysis of the deposited data

Results flagged for a closer look

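Among the 39 named genes and 43 gene lists, 3 had 1 library of a group of 4 set apart from the others by a gap past Dixon's 95% critical value, a test that chance passes in about 1 of 20 groups. S100a8 was at 19.9 CPM in radiated replicate 3 of week 4, against 53.2 CPM or more in the other 3. Hamp2 was at 0.776 CPM in radiated replicate 2, against 0.0446 CPM or less in the others, all below the sham samples. The TGF-beta and activin list had a mean log2 CPM of 6.40 in radiated replicate 3, and 6.35, 6.35, 6.40 and 6.34 over replicates 1 to 4. Agtr2 was higher in radiated skin of week 4 than of week 3 by 4.08 on the log2 scale (SE 0.403, adjusted p 0.0407 in edgeR), in 4 of 4 samples; this direct test of the difference between the weeks called 0 genes without any 1 of 7 of the 8 libraries.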

How the results depend on the processing

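Between radiated week 4 and sham skin 4899 genes were called. The count was 5866 by DESeq2, 4882 with RLE scaling, 5077 with total-count scaling, 4605 with no filter, 4849 with a stricter filter, 5127 in 1 fit of all 35 samples, and between 3467 and 4590 with 1 library left out. With the replicate number as a block it was 3160, of which 3058 were among the 4899; these mice differ between groups and same-numbered samples correlated by 0.147, -0.152 and 0.179, so the number pairs nothing here. Among 860 named genes and list members 461 were called, 326 of them under every alternative. Gbp3 was the value that turned its direction: 1.14 without sham replicate 1 (adjusted p 0.0184 in edgeR) against -0.48 with all libraries, and as low as -0.91 without sham replicate 3; the cause was not tested. The count of week 3 against sham was 6402 in 1 fit of all samples and 1134 to 3965 with 1 library left out. That of control week 4 against sham was 1814 by DESeq2, 97 with the replicate block, and 0 to 1705 with 1 library left out. That of week 4 against week 3 was 70 in 1 fit of all samples, 425 by DESeq2, 0 with the block, and 0 to 58 with 1 library left out; the cause was not tested. For radiated against control skin of week 4, whose same-numbered samples are taken to be 1 mouse from the number of mice, the block gave 7623 against 8643; these samples correlated by -0.0556, 0.0367, -0.0195 and -0.0409, so the data show no pairing by number. Among other gene lists, counts of 4 or fewer calls in 1 direction moved by over 1.5 times: by DESeq2, falls of 1 in epidermal adhesion, 2 in myofibroblast, 1 in complement, 2 in muscle regeneration and 3 in immediate early genes, and rises of 2 in adipocyte genes; in 1 fit of all 35 samples, falls of 1, 2, 2 and 2 in epidermal adhesion, myofibroblast, muscle regeneration and immediate early genes and of 2 in adipocyte genes, and no rise in clock genes; and with total-count scaling, 2 falls in immediate early genes.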

Other observations

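Genes outside the lists, chosen after their values were seen, included those with the smallest p-values. Draxin, a guidance molecule of axons, was at 4.37, 3.51 and 3.87 CPM in sham and 49.4, 38.7, 42.3 and 46.2 CPM in radiated skin (log2 fold change 3.54, adjusted p 4.5e-05, SE 0.166, from edgeR as in the report). Ptprn, a protein of secretory granules in neuroendocrine cells, was at 0.883, 0.997 and 0.981 CPM in sham and 12.03, 12.02, 13.2 and 14.1 CPM in radiated skin (log2 fold change 3.79, adjusted p 6.62e-05, SE 0.194). Ifitm1, a membrane protein of the interferon-induced family, was at 0.927, 1.26 and 1.03 CPM in sham and 41.3, 26.8, 27.7 and 41.3 CPM in radiated skin (log2 fold change 5.03, adjusted p 7.2e-05, SE 0.272). Saa3, an acute-phase protein, was at 6.401, 4.55 and 8.31 CPM in sham and 376, 196, 343 and 397 CPM in radiated skin (log2 fold change 5.73, adjusted p 9.04e-05, SE 0.347). Ptgs2, the inducible enzyme of prostaglandin synthesis, was at 5.25, 2.69 and 3.304 CPM in sham and 98.2, 135, 149 and 312 CPM in radiated skin (log2 fold change 5.58, adjusted p 0.000265, SE 0.501). Penk, which encodes the opioid precursor proenkephalin, was at 4.33, 4.42 and 5.88 CPM in sham and 46.2, 39.4, 51.5 and 75.9 CPM in radiated skin (log2 fold change 3.498, adjusted p 0.000154, SE 0.2700). Fgf7, the fibroblast-derived growth factor for keratinocytes, was at 12.8, 13.2 and 7.33 CPM in sham and 139, 87.7, 84.9 and 116 CPM in radiated skin (log2 fold change 3.304, adjusted p 0.000221, SE 0.283), while Fgfr2, whose product includes its receptor, fell from 197, 166 and 208 CPM to 47.8, 53.9, 48.8 and 31.04 CPM (log2 fold change -2.02, adjusted p 0.000296, SE 0.187).

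A pair of tight junction genes, also chosen after their values were seen, fell. Ocln, occludin, was at 27.5, 41.5 and 26.6 CPM in sham and 5.59, 8.07, 7.29 and 6.29 CPM in radiated skin (log2 fold change -2.18, adjusted p 0.00039, SE 0.217), and Patj, a scaffold protein, at 83.4, 119 and 102 CPM in sham and 36.1, 43.2, 45.1 and 38.3 CPM in radiated skin (log2 fold change -1.27, adjusted p 0.000706, SE 0.149). Oxtr, the oxytocin receptor, fell from 46.7, 48.3 and 28.7 CPM to 3.24, 5.86, 3.77 and 3.17 CPM (log2 fold change -3.32, adjusted p 0.000221, SE 0.283), and Axin2, a target of Wnt signalling, from 165, 106 and 143 CPM to 35.6, 38.98, 51.4 and 26.00 CPM (log2 fold change -1.81, adjusted p 0.00107, SE 0.233). Hair genes were also low in most of these radiated samples, with radiated replicate 3 the richest in hair RNA, and their part in these decreases was not tested.

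In 1 fit of all 35 samples, in which the spread is shared by all groups, 70 genes differed between radiated skin of weeks 4 and 3. Postn was higher in week 4 by 2.21 on the log2 scale (adjusted p 0.00096), Col12a1 by 2.03 and Tnn, tenascin N, by 2.60 (adjusted p 0.00589 each), and Rgs5, a pericyte gene, by 1.57 (adjusted p 0.00475). None of these passed in the fit of the 8 radiated samples alone.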
